A study of Mus musculus with 24 samples.

Results

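The m6A immunoprecipitation (IP) of nuclear RNA from RBC embryonic stem (ES) cells was compared with its input, gene by gene and repeat subfamily by repeat subfamily. The comparison rests on 4 of the 24 samples of the series, 2 inputs and 2 IP libraries, taken by their labels. Each IP was divided from the same RNA preparation as the input of the same replicate number. The count table held 49090 features, of which 47937 were genes and 1153 were repeat subfamilies, and 22621 features passed the filter on low counts and were tested.

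N6-methyladenosine (m6A) is the most abundant internal modification of messenger RNA. It is placed during transcription by a complex around the methyltransferase Mettl3 and its partner Mettl14, mostly at a short consensus with GGACT as its best-known form, and is read by YTH domain proteins. It is known to lie mainly in long exons and around stop codons, and in ES cells it is best known for marking transcripts of pluripotency factors, whose turnover it speeds. In methylated RNA immunoprecipitation (MeRIP) fragmented RNA is pulled down with an antibody against m6A, and the reads of a transcript in the IP are set against its reads in the input.

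RBC is a mouse ES cell line of mixed 129/Sv and C57Bl6 background that carries a biotin ligase with a V5 tag (BirA-V5) in the Rosa26 locus and a Cre-ERT2 transgene. It is the parent and control of the *Mettl3* KO cells, which are a single clone and carry the same transgenes. WT26 is another wild-type ES cell line, the control of the *Mettl14* KO cells. The series held input and m6A IP of nuclear RNA of all 4 lines in 2 replicates each, in 16 libraries, and RNA-seq of the same lines, which was not used here. All lines were grown without feeder cells, on gelatin, in medium with serum replacement and LIF. The labels call replicates biological without saying how the cultures were separated. The p-values therefore measure a spread between preparations, shared over the 16 libraries of all 4 lines and not that of RBC alone. The main fit did not pair input with IP.

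In the 2 RBC inputs all 12 ES cell markers examined were above 100 normalised reads, from 431.7 to 4836.2. Markers of fibroblasts were low, with 0 of 6 above 100 and Col3a1 and Dcn at 0 in both inputs. Of primitive endoderm 0 of 6, of mesoderm 0 of 5, of 2-cell-like cells 0 of 5 and of trophoblast 1 of 4 markers passed 100, with Cdx2 at 0. Of the 5 neural markers 4 passed it, at 78.7 to 341.7 for the whole list. *Mettl3* itself had 537.4 and 537.7 normalised reads in the RBC inputs and 553.1 and 473.7 in those of *Mettl3* KO, so that the count over the whole gene did not tell the lines apart.

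The windows that follow show, in capitals, the GGACT of the coding sequence nearest to the stop codon in genes enriched in the IP. Only windows that lay within the coding sequence and a single exon were taken, and untranslated regions were left out. The match need not lie close to the stop codon. It was 152 bases from the end of the coding sequence in *Nanog*, 288 in *Gbx2*, 320 in *Bloc1s4* and 350 in *Ccdc85b*. In *Klf4* it was 449, in *Purg* 518, in *Klf2* 926 and in *Zfp3* 966 bases away. They are reference sequence of GRCm38 on the strand of the transcript, 5′ to 3′. The first is from *Ccdc85b*, which had the largest enrichment of protein-coding genes at a mean of at least 50 normalised reads, at chr19:5457132-5457156 on the minus strand in its single exon. Those of *Purg* at chr8:33386853-33386877 (plus strand) and *Bloc1s4* at chr5:36748311-36748335 (minus strand) also lie in exon 1. The window of the zinc finger gene *Zfp3* is at chr11:70771727-70771751 (plus strand) in exon 2. Those of the pluripotency factors are at chr4:55530100-55530124 (minus strand) in exon 3 of *Klf4*, chr1:89928901-89928925 (minus strand) in exon 2 of *Gbx2*, chr8:72319475-72319499 (plus strand) in exon 2 of *Klf2* and chr6:122713386-122713410 (plus strand) in exon 4 of *Nanog*.
Ccdc85b: gctgctttctGGACTcggagcgcca
Purg: tcctcaaaacGGACTatatagagag
Bloc1s4: tgatccgcggGGACTcgtcgcatgt
Zfp3: aagaccttcgGGACTaactccagcc
Klf4: tgaacagcagGGACTgtcaccctgg
Gbx2: cggcggcggcGGACTgccttcacca
Klf2: acaacgtgttGGACTtcatcctctc
Nanog: acttcggggaGGACTttctgcagcc
GGACT, searched on the transcript strand only, was in the coding sequence of 76.2% of the 14793 tested protein-coding genes with a sequence, of 74.3% of the enriched and of 76.4% of the depleted ones, so its presence alone did not set the enriched genes apart. *Eid2*, *Lsm10* and *Sox2*, all enriched, had none in their coding sequence, while of the 6 depleted histone genes named for their size *Hist1h4c*, *Hist1h4h* and *Hist1h4n* had none in the whole transcript, *Hist1h4d* and *Hist4h4* had 3 each and *Hist1h3e* had 1.

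The RBC inputs held 19302923 and 14804156 counted reads and the IP libraries 28441282 and 14047750, within the range of 9394163 to 28441282 of all 16 libraries. Protein-coding genes took 34.3% and 38.2% of the reads of the inputs and 52.5% and 63.6% of those of the IP, and repeats 32.7% and 41.8% of the inputs and 32.8% and 28.1% of the IP. Reads of mitochondrial transcripts moved in opposite directions in the 2 replicates, from 5.64% to 12.3% in replicate 1 and from 1.99% to 0.98% in replicate 2. *Lars2*, which held 1.37% and 0.926% of the input reads, held 0.0502% and 0.517% of the IP reads. The part of these differences in the results was not tested.

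In the IP of RBC 3030 features were enriched over input (13.4% of those tested) and 2501 were depleted (11.1%). A feature counted as called when its adjusted p did not exceed 0.05 (edgeR's quasi-likelihood test, Benjamini-Hochberg over all 22621 features) and a log2 fold change above 1 or below -1. Genes made up 3010 of the enriched features (14% of 21524 genes tested) and 1995 of the depleted ones (9.27%), and of 1097 repeat subfamilies 20 were enriched (1.82%) and 506 depleted (46.1%). All values are relative to the median feature, which lay at a log2 fold change of 0.02. Scaled by library size instead, the median rose to 0.49, and 5840 features were enriched and 1052 depleted, so that enriched features made up 84.7% and not 54.8% of those called.

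Over all tested features 41.4% lay above 0 in both replicates and 40.5% below 0 in both. Called genes are selected for like values in the replicates, so their signs are a description. Of the 3010 enriched genes all lay above 0 in both replicates, with a median log2 IP over input of 1.09 in replicate 1 and 1.95 in replicate 2, and 1754 were above 1 in both. Of the 1995 depleted genes 1993 lay below 0 in both, with medians of -1.38 and -2.42. In 94.4% of the enriched genes the value of replicate 2 was the larger one. Input and IP did not overlap in 70.3% of all tested features, which is the background for the statements on overlap that follow.

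The counts of calls depended on single libraries. Without IP replicate 2, 35 features were enriched and 67 depleted, without input replicate 2 there were 1 and 113, and without input replicate 1 there were 404 and 681. Without IP replicate 1 they rose to 4161 and 3844. Of the 5531 features called, all or all but 1 kept their sign in each of these fits. Input and IP did not overlap in 99.9% of the enriched and 99.9% of the depleted genes. Their signs could therefore hardly change when a library was left out, and this is no check of their direction. The calls of genes named in the text shared this: of the features named by the rule 134 lost their call without input replicate 2, 131 without IP replicate 2 and 92 without input replicate 1.

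**Figure D1:**
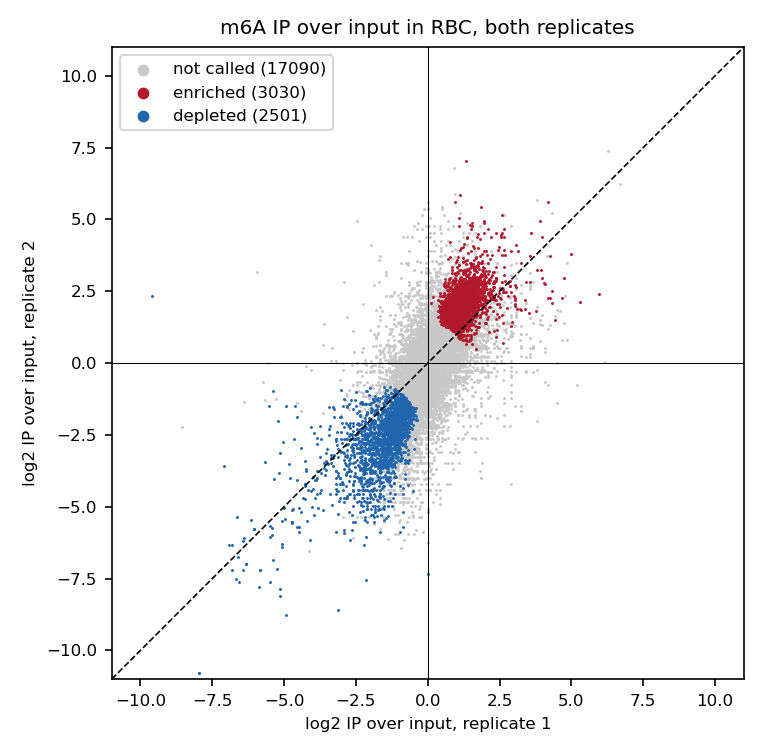
Each point is 1 of the 22621 tested features in RBC, with the log2 ratio of IP to input in replicate 1 on the x axis and in replicate 2 on the y axis. The 3030 enriched (red) and 2501 depleted features (blue) lie on the same side of 0 in both replicates with few exceptions, and mostly farther from 0 in replicate 2 than the dashed line of equal values.

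Short structural RNAs were depleted more often than the 9.27% of all genes. Of 406 small nucleolar RNAs (snoRNA), which guide the modification of ribosomal RNA, 233 were depleted and 2 enriched, with a median log2 fold change of -1.89. Of the rows annotated as small nuclear RNA 53 of 191 were depleted (median -1.71), and of the scaRNAs, guide RNAs of Cajal bodies, 10 of 26. All 5 rows annotated as ribozymes were depleted, with a median of -4.53. Annotated microRNA loci were depleted in 136 and enriched in 22 of 451 cases (median -1.28). A minimum of 10 counts in every RBC library, which also drops rows with few IP reads, left 14 small nuclear RNA rows. Among these 3 were depleted and 2 enriched (median -0.24). The same minimum left 112 microRNA rows, 26 depleted and 8 enriched (median -0.31), and 153 snoRNAs, 87 depleted and 0 enriched (median -1.42). Without input 1, input 2, IP 1 and IP 2 the depleted snoRNAs numbered 115, 52, 247 and 30, at medians from -2.58 to -1.54. Over all protein-coding genes 2503 were enriched (16.9%) and 639 depleted (4.32%), with a median of 0.25.

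Of the 10 structural RNAs listed by name 8 were tested and all 8 were depleted, with a median log2 fold change of -4.72. *Rmrp*, the RNA of the RNase MRP (chr4:43492788-43493058), had 57377.5 and 44383.6 normalised reads in the inputs and 565 and 240.4 in the IP. *Rn7s2*, a copy of the 7SL RNA of the signal recognition particle, had 19678.5 and 16881.3 in the inputs and 587.9 and 198.2 in the IP. The groups were far apart in both, by a log2 fold change of -6.98 ± 0.618 (SE; adjusted p = 1.5e-04, edgeR) for *Rmrp* and -5.53 ± 0.489 (adjusted p = 1.5e-04, edgeR) for *Rn7s2*. The 7SL copies *Rn7s1* and *Rn7s2* are near-identical, so that their shares of the reads are uncertain.

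*Rn7sk*, the RNA that holds the elongation factor P-TEFb inactive, had 26338.1 and 27812.8 normalised reads in the inputs and 3011.6 and 736.3 in the IP. *Rpph1*, the RNA of RNase P, fell from 22085.4 and 32563.6 to 1343.9 and 1019.9, and *Terc*, the RNA template of telomerase, from 983.6 and 461.9 to 82.2 and 30.2. These 3 genes were chosen for their function after their values were seen, and all were called depleted, with log2 fold changes of -3.85, -4.53 and -3.65. In *Mettl3* KO the 8 structural RNAs had a median of -4.35, close to the one in RBC. Without single libraries between 3 and 6 of the 8 were called, at medians from -5.25 to -4.37.

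Among snoRNAs, those of the box H/ACA type (*Snora* genes), which guide pseudouridylation, were depleted in 33 of 40 cases with a median of -2.21. Those of the box C/D type (*Snord* genes), which guide ribose methylation, were depleted in 45 of 76 with a median of -1.58. All 10 rows of U3, the C/D RNA needed to cleave the ribosomal precursor, were depleted, from -8.26 to -6.08. *Rnu3a* had 1999.9 and 886 normalised reads in the inputs and 7.5 and 0 in the IP, and another row of the table held the same counts. *Snora73a* had 3511.9 and 2160.8 in the inputs and 30.4 and 14.1 in the IP (-6.93 ± 0.829, adjusted p = 0.00112, edgeR), the lowest value of any *Snora* gene.

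Some protein-coding rows shared reads with such an RNA. *Ccdc107* had the largest depletion of the protein-coding genes called, from 56690.6 and 44304.1 normalised reads in the inputs to 654.1 and 301.8 in the IP (-6.72 ± 0.582, adjusted p = 1.5e-04, edgeR), and overlaps *Rmrp* on the opposite strand with nearly the same counts. Whether the counting used strand is not given in the sources used here, so that the reads of the overlapping pair cannot be told apart. Likewise *Gm11175*, with the largest enrichment among genes that code for no protein at a mean of at least 50 reads (2.93 ± 0.821, adjusted p = 0.0213, edgeR), lies within *Jund* on the opposite strand, and *Gm27937* lies within *Tug1*. Of the protein-coding genes tested 55.2% overlap another gene. Those named in the text include *Tagap*, *Bloc1s4*, *Gbx2* and *Mettl3*, on the opposite strand, and *Sox2*, on the same strand as *Sox2ot*. The part of the other gene in their counts was not tested.

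**Figure D2:**
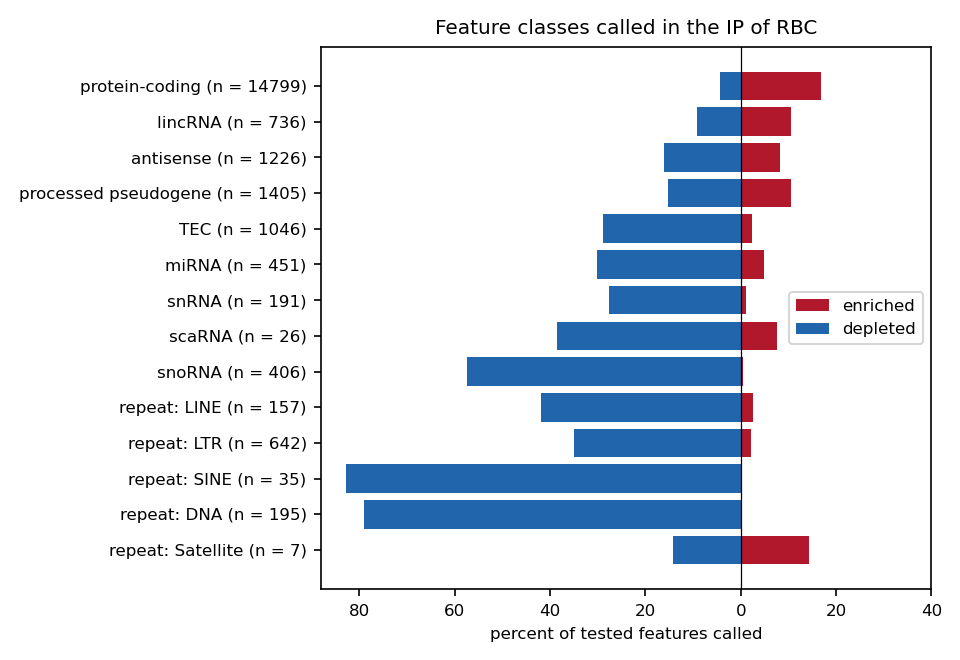
Bars give, for each class of gene or repeat, the percent of tested features called enriched (red, to the right) and depleted (blue, to the left) in the IP of RBC, with the number tested in parentheses. Protein-coding genes have the largest share enriched of the classes drawn (16.9%), while snoRNA (57.4%), SINE (82.9%) and DNA repeats (79%) were mostly depleted.

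The protein-coding genes with the 8 largest enrichments were taken at a mean of at least 50 normalised reads over the 4 libraries, which some reach only through the IP, so they are a description. *Ccdc85b* (chr19:5453180-5457894), a coiled-coil protein encoded by a single exon, overlaps *Fosl1* on the opposite strand, whose reads cannot be told apart from its own here. It had 11.2 and 10.1 normalised reads in the inputs and 69.9 and 143.8 in the IP (log2 fold change 3.30 ± 0.489, adjusted p = 0.00425, edgeR). *Purg*, a single-stranded nucleic acid binding protein of the Pur family, also encoded by 1 exon, had 69.7 and 89.6 in the inputs and 287 and 828.8 in the IP (2.80 ± 0.581, adjusted p = 0.00921, edgeR). The rule that named them asks for input and IP to be apart, and in both the second IP library was the highest. Among the 8 largest were further *Tagap* (2.91, with 10 exons), *Eid2* (2.84), *Bloc1s4* (2.80), *Cbr3* (2.79), *Aldh1b1* (2.79), a mitochondrial aldehyde dehydrogenase, and *Lsm10* (2.77), a subunit of the U7 particle that processes histone mRNA. Of these 8 genes, 4 have a single exon.

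Across all protein-coding genes the share that was enriched fell with the number of exons of the representative transcript. It was 43.1% of 552 genes with 1 exon, 45.3% of 782 with 2, 32.5% of 3123 with 3 to 5, 13.1% of 4272 with 6 to 10, 6.51% of 4069 with 11 to 20 and 3.65% of those with over 20 exons. The median log2 fold change went from 1.43 with 1 exon to -0.26 with over 20 exons, where 209 genes were depleted. Spearman's rho between number of exons and log2 fold change was -0.44 over 14799 genes, and -0.44 and -0.41 in the 2 replicates. Genes of one library share its depth and composition and are not independent, so the rho is a description.

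Medians by exon number had the same order in WT26 and *Mettl3* KO. In WT26 rho was -0.45 and in *Mettl3* KO -0.37, with a median in single-exon genes of 1.47 in WT26 and 0.97 in *Mettl3* KO. The length of the longest exon was related to the ratio in RBC and WT26. In RBC the median rose from -0.08 in genes whose longest exon had up to 500 bases through 0.15, 0.31 and 0.52 to 0.55 in those with over 4000 bases (rho 0.21), and WT26 had the same rho of 0.21. In *Mettl3* KO the medians of these 5 groups were 0.12, 0.10, 0.09, 0.14 and 0.10 and rho was 0.01. The difference between the rho values was not tested.

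The lowest group was also the one in which *Mettl3* KO had the most enriched genes. Of the 2706 genes with a longest exon of up to 500 bases 157 were enriched in RBC and 176 in *Mettl3* KO, and of the 1335 with over 4000 bases 360 were enriched in RBC and 21 in *Mettl3* KO. The number of GGACT per 1000 bases of transcript was weakly related to the log2 fold change (rho 0.08 in RBC, 0.04 in *Mettl3* KO). Genes with up to 0.5 GGACT per 1000 bases were enriched in 16.9% and those with over 2 in 19.6% of cases, and depleted in 6.11% and 2.05%. Transcript length had a rho of -0.03, GC content of 0.14 and the mean input count of -0.22.

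**Figure D3:**
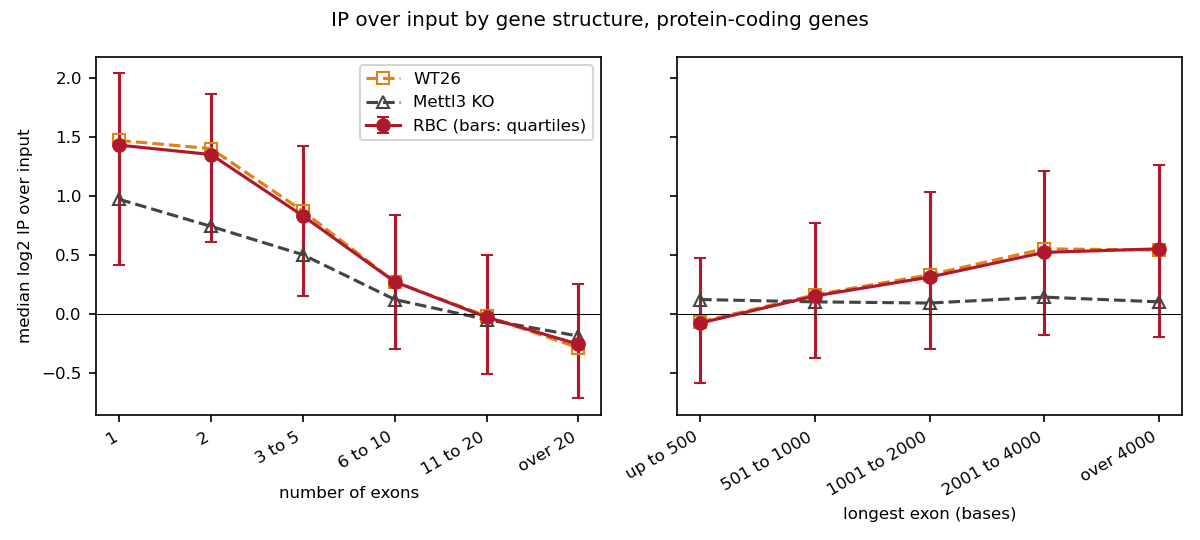
The y axis is the median log2 IP over input of protein-coding genes grouped by number of exons (left) or by the length of the longest exon in bases (right), in RBC (red, bars from the lower to the upper quartile), WT26 (orange) and Mettl3 KO (grey). RBC falls from 1.43 to -0.26 with exon number and rises from -0.08 to 0.55 with the longest exon, while Mettl3 KO stays between 0.09 and 0.14 on the right.

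Genes of C2H2 zinc finger proteins, the largest family of DNA-binding factors, had the largest share of enriched members of the lists examined. Of 418 genes named *Zfp*, *Zkscan* or *Zscan*, 396 were tested, and 271 of these were enriched (68.4%, beside 16.9% of all protein-coding genes) and 3 depleted, with a median log2 fold change of 1.42. The medians were 0.96 and 1.76 in the 2 replicates, and 362 members were above 0 in both. *Zfp3*, the member with the largest value, had 16.9 and 27.8 normalised reads in the inputs and 102.4 and 200.2 in the IP (2.75 ± 0.467, adjusted p = 0.00642, edgeR). *Zfp955a*, at a higher level, had 130.4 and 151.5 in the inputs and 437.5 and 1107.5 in the IP (2.45 ± 0.547, adjusted p = 0.0105, edgeR). The depleted members were *Zfp202* (-1.10), *Zfp706* (-1.05) and *Zfp335* (-1.03). Many members have close paralogs, between which reads may have been divided by the counting.

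The share of enriched zinc finger genes was above that of other protein-coding genes with as many exons. With 3 to 5 exons 76.9% of 238 zinc finger genes and 28.8% of 2885 others were enriched, with 6 to 10 exons 58.6% of 111 and 11.8% of 4161, and with 2 exons 88.9% of 18 and 44.2% of 764. With 11 to 20 exons the shares were 19% of 21 and 6.45% of 4048. The list's longest exons had a median of 2507 bases. The number of enriched members was 26 without input replicate 1, 0 without input replicate 2, 313 without IP replicate 1 and 0 without IP replicate 2, while the median stayed between 0.92 and 1.8.

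Immediate early and stress genes, which are induced within minutes of a stimulus and have short-lived mRNA, were enriched in 27 of 45 cases tested (60%, beside 16.9% of all protein-coding genes) and depleted in none, with a median of 1.48. *Jund*, a subunit of the AP-1 factor, had 247.3 and 374.9 normalised reads in the inputs and 673.3 and 2780.2 in the IP (2.47 ± 0.695, adjusted p = 0.0216, edgeR). *Ier5l* had 59.6 and 51.7 in the inputs and 216.1 and 445.6 in the IP (2.56 ± 0.462, adjusted p = 0.00699, edgeR). In both, every IP value exceeded every input value. *Ier5* (2.54) and *Spry1* (2.40), an inhibitor of growth factor signalling, were the other largest. The count was 5, 0, 29 and 0 without input 1, input 2, IP 1 and IP 2, at medians from 1.01 to 1.81.

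Of 35 pluripotency factors, all tested, 17 were enriched (48.6%) and 2 depleted (5.71%), with a median of 1.08, against 16.9% and 4.32% of all protein-coding genes and their median of 0.25. *Klf4*, a factor of the naive state (chr4:55527143-55532466), had 1093.8 and 1678.7 normalised reads in the inputs and 2956.6 and 9339.4 in the IP (2.15 ± 0.531, adjusted p = 0.0138, edgeR). *Sox2* had 1116.3 and 932.7 in the inputs and 2876.6 and 5908.4 in the IP (2.10 ± 0.425, adjusted p = 0.00899, edgeR). *Nanog* had 1383.8 and 1456.5 in the inputs and 2073.2 and 3889.7 in the IP, a smaller rise (1.07 ± 0.322, adjusted p = 0.0274, edgeR), whose log2 fold change no longer passed 1 with the replicate as a block (1.0). Input and IP were apart in all 3 genes, with IP replicate 2 the highest library.

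*Gbx2* and *Klf2*, targets of LIF and MAPK signalling in the naive network, had the largest called values, 2.50 and 2.45. *Gbx2* had 300.2 and 248.6 normalised reads in the inputs and 1069.7 and 2036.9 in the IP, and *Klf2* had 312.5 and 424.1 in the inputs and 895.7 and 3120.2 in the IP. Depleted were *Tfcp2l1* (-1.31 ± 0.305, adjusted p = 0.0114, edgeR) and *Stat3* (-1.08 ± 0.299, adjusted p = 0.0207, edgeR), the factor through which LIF acts. *Pou5f1*, named after its values were seen, had 1284.9 and 1138.5 normalised reads in the inputs and 1425.5 and 1073.3 in the IP, which overlap (0.04 ± 0.221, adjusted p = 0.894, edgeR). Members of the core network were thus on different sides of the threshold. The number of enriched factors was 4, 0, 23 and 0 without input 1, input 2, IP 1 and IP 2.

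**Figure D4:**
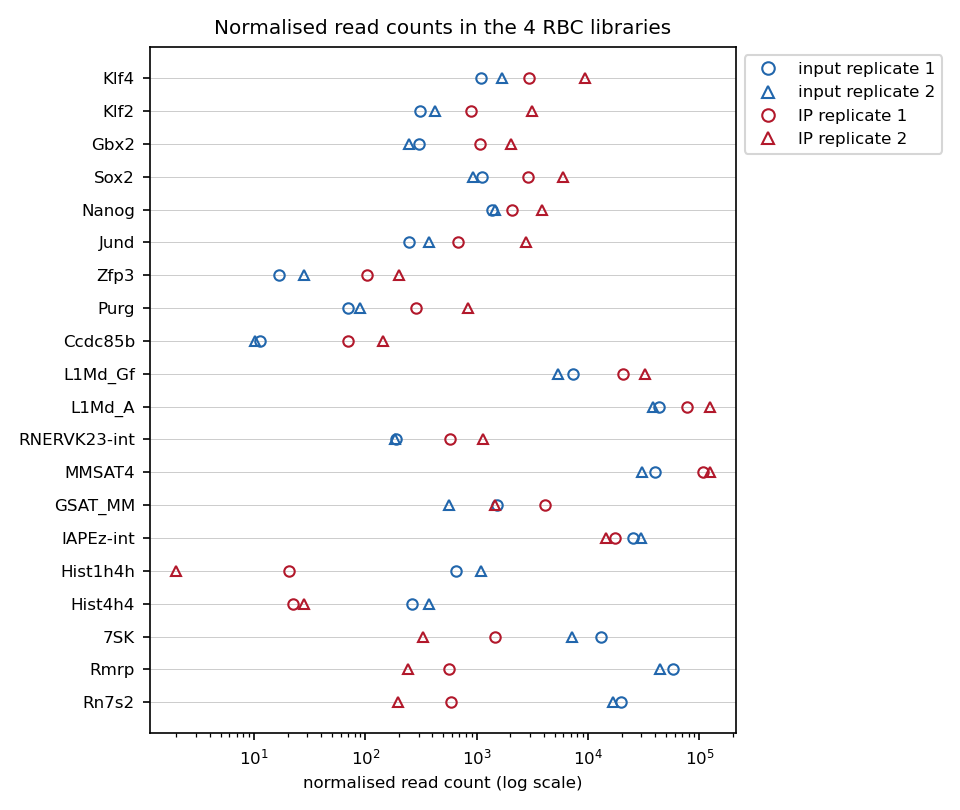
The x axis, on a log scale, is the normalised read count of each feature in the 4 RBC libraries, inputs in blue and IP in red, replicate 1 as circles and replicate 2 as triangles. From Klf4 to MMSAT4 both IP values lie above both inputs, from IAPEz-int to Rn7s2 below them, and in GSAT_MM the groups overlap, with inputs of 1532.2 and 564.2 and IP values of 4097.2 and 1466.5.

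Among signalling pathways, Wnt and TGF-beta genes held more enriched members than the background of 16.9% in protein-coding genes. Of 40 Wnt pathway genes tested 17 were enriched and 2 depleted, with a median of 0.98. All 10 frizzled receptors, grouped after their values were seen, were enriched, from 1.01 to 2.39, and 6 of them have a single exon. *Fzd10* had 224.8 and 175.4 normalised reads in the inputs and 705.3 and 1391.1 in the IP (2.39 ± 0.514, adjusted p = 0.00988, edgeR). *Fzd7* had 609.3 and 465.7 in the inputs and 1223.8 and 2293.4 in the IP (1.71 ± 0.335, adjusted p = 0.00846, edgeR). The depleted members were *Porcn* (-1.25), which adds the lipid of Wnt ligands, and *Tnks* (-1.11), which marks Axin for degradation. Without input 1, input 2, IP 1 and IP 2 the enriched Wnt genes numbered 1, 0, 19 and 0.

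Of 38 TGF-beta and BMP pathway genes 10 were enriched (26.3%) and 0 depleted, with a median of 0.75. The shares of all protein-coding genes, 16.9% enriched and 4.32% depleted, are the background for the lists of this paragraph. The largest values among those called were *Bmp4* (2.25), *Inhbb* (2.21) and *Nodal* (2.13), which are ligands, and the inhibitor *Smad7* (1.74). *Nodal* had 587.9 and 376.1 normalised reads in the inputs and 1842.7 and 2395 in the IP (2.13 ± 0.376, adjusted p = 0.00676, edgeR). *Inhbb*, the beta B chain of inhibins and activins, had 2229.2 and 2362.8 in the inputs and 6073.3 and 15192.6 in the IP (2.21 ± 0.529, adjusted p = 0.0126, edgeR). In both genes the groups were apart. Of 25 Notch genes 3 were enriched (12%, below the background) and 0 depleted, with a median of 0.21. These 3 were the ligand *Dll1* (1.47) and the effectors *Hes6* (1.64) and *Hes1* (1.35). Of 23 Hippo genes 5 were enriched (21.7%) and 1 depleted (4.35%), both near the background, with a median of 0.06 and the kinase *Lats1* at 1.37. Homeobox, Fox, Sox and Gata factors were enriched in 23 and depleted in 1 of 81 tested of 159 genes (median 0.96). Among the enriched ones *Pou3f1* had few reads, with 12.4 and 7.6 normalised reads in the inputs and 49.6 and 61.4 in the IP (2.45 ± 0.566, adjusted p = 0.0113, edgeR). Without input 1, input 2, IP 1 and IP 2 the enriched TGF-beta genes numbered 2, 0, 19 and 0 and these factors 2, 0, 32 and 0.

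Of the 23 genes of m6A writers, readers and erasers 7 were enriched (30.4%) and 2 depleted (8.7%), with a median of 0.20, beside 16.9% and 4.32% of all protein-coding genes. *Rbm15* and *Rbm15b*, which recruit the methyltransferase to RNA, were enriched at 1.87 and 1.93. *Rbm15* had 1598.6 and 1833.9 normalised reads in the inputs and 3741.9 and 8792.3 in the IP (1.87 ± 0.485, adjusted p = 0.0162, edgeR). Of the cytoplasmic readers *Ythdf2* had 738.6 and 723.2 in the inputs and 1693.8 and 3596 in the IP (1.85 ± 0.49, adjusted p = 0.0173, edgeR), and *Ythdf1* was at 1.64. *Mettl3* had 537.4 and 537.7 in the inputs and 414 and 306.8 in the IP, and *Mettl14* had 274.3 and 373.6 in the inputs and 298.8 and 273.6 in the IP. Neither was called (-0.57 ± 0.226, adjusted p = 0.0692, and -0.18 ± 0.274, adjusted p = 0.642, edgeR). The 2 depleted genes were the readers *Ythdc2*, of the YTH family (-1.41), and *Igf2bp1* (-1.15). Without input 1, input 2, IP 1 and IP 2 the enriched genes of this list numbered 1, 0, 9 and 0.

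Chromatin regulators were enriched in 14 and depleted in 2 of 74 genes (18.9% and 2.7%, median 0.37), close to the 16.9% of all protein-coding genes. Enriched were *Asxl1* (1.69), *Setd2*, the H3K36 methyltransferase (1.49), *Ring1* (1.41) and *Arid1a* (1.29). The depleted ones were *Trim28*, the corepressor of KRAB zinc finger proteins, with 7375.7 and 6911.6 normalised reads in the inputs and 3517.3 and 2244.1 in the IP (-1.31 ± 0.295, adjusted p = 0.0107, edgeR), and *Cbx5*, which encodes HP1 alpha (-1.29 ± 0.361, adjusted p = 0.0209, edgeR). Among mitotic genes 3 of 36 were enriched and 2 depleted (median 0.12), among them *Mki67* at 1.63 and the condensin subunit *Ncapd2* at -2.30. The *Ncapd2* locus holds the small RNA gene *Scarna10* on the same strand, and its part in the count was not tested. Among genes of DNA repair and replication 5 of 40 were enriched and 2 depleted (median -0.04), among them *Fen1* at 1.94 and *Fancd2* at -1.61.

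Genes for abundant housekeeping machines are set against the 16.9% of protein-coding genes enriched and the 4.32% depleted. Of 84 ribosomal protein genes 5 were enriched and 0 depleted (median 0.26), and the replicates differed in sign, with medians of 0.47 and -0.19. *Rpl36al*, with 491.3 and 440.5 normalised reads in the inputs and 1406.8 and 1809.5 in the IP, was the largest (1.79 ± 0.375, adjusted p = 0.00942, edgeR). Of 73 nuclear genes of oxidative phosphorylation 9 were enriched (12.3%) and 0 depleted (median 0.57), with the complex I subunit *Ndufa2* at 1.92, and of 32 proteasome genes 1 was enriched (*Psmd7*, 1.22). Without IP replicate 1 the median of the ribosomal protein genes was -0.30, and 7 of them were depleted and 4 enriched. The 13 mitochondrially encoded mRNAs had medians of 0.66 in replicate 1 and -1.41 in replicate 2, and none was called.

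Of 40 translation factors 0 were enriched and 4 depleted (10%). The shares of all protein-coding genes, 16.9% enriched and 4.32% depleted, are again the background. *Eif4a1*, the RNA helicase of cap recognition, had 8647.1 and 6743.7 normalised reads in the inputs and 3109.7 and 2454.3 in the IP (-1.47 ± 0.243, adjusted p = 0.00613, edgeR), and its locus holds small RNA genes on the same strand. Splicing factors were enriched in 3 and depleted in 3 of 50 cases (median -0.27), with the small subunit *Sf3b5*, a single-exon gene, at 2.13 and *Prpf8*, with 42 exons, at -1.29. Glycolytic genes were enriched in 1 of 18 (*Slc2a1*, a glucose transporter, 1.12). Genes of the extracellular matrix and adhesion were enriched in 5 and depleted in 5 of 37 cases (median -0.18). *Lama5*, a laminin chain with 79 exons, fell from 5656.8 and 3749.9 in the inputs to 2066.8 and 748.4 in the IP (-1.74 ± 0.418, adjusted p = 0.0127, edgeR), and *Fn1*, *Agrn* and *Hspg2* were the next lowest of those called (-1.15, -1.18 and -1.14). *Dag1*, with 4 exons, was at 1.6. Of 46 olfactory and vomeronasal receptor genes tested of 1387, 4 were enriched and 2 depleted at low counts.

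Replication-dependent histone genes, whose mRNA ends in a stem-loop and not in a poly(A) tail, were enriched in 6 and depleted in 14 of 63 tested. These shares of 9.52% and 22.2% stand beside 16.9% and 4.32% of all protein-coding genes. The families differed, with 9 of 12 H4 genes depleted (median -1.98) and 3 of 6 H1 genes enriched (median 1.17). *Hist1h4h* had 650.9 and 1100.6 normalised reads in the inputs and 20.8 and 2 in the IP (-6.07 ± 0.626, adjusted p = 4.1e-04, edgeR). *Hist4h4* had 264.2 and 374.9 in the inputs and 22.4 and 28.2 in the IP (-3.67 ± 0.447, adjusted p = 0.00129, edgeR). *Hist1h1c*, the gene of linker histone H1.2, had 682.4 and 872.1 in the inputs and 1755.2 and 3668.4 in the IP (1.8 ± 0.406, adjusted p = 0.0107, edgeR). Both directions thus occurred among genes of mostly a single exon, and coding sequences within a histone family are near-identical, so that reads may have been divided between copies. Without input 1, input 2, IP 1 and IP 2 the depleted histone genes numbered 13, 8, 16 and 6 and the enriched ones 1, 0, 5 and 0. In *Mettl3* KO 5 of the 6 H1 genes were enriched and 5 of the 12 H4 genes depleted.

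Long noncoding RNAs lay on both sides of 0, with more of them below it. In both replicates 21 were below 0 and 10 above. Of 35 tested 3 were enriched (8.57%, beside 14% of all genes) and 7 depleted (20%, beside 9.27%), with a median of -0.43. The list also holds the microRNA locus *Mir290b*, of 58 bases, which was among those depleted (-2.57). It had 27 and 18.9 normalised reads in the inputs and 6.4 and 0 in the IP. *Tug1* had 1706.5 and 1844 normalised reads in the inputs and 4136.2 and 8128.4 in the IP (1.79 ± 0.436, adjusted p = 0.0132, edgeR). *Tsix*, whose row overlaps *Xist* on the opposite strand so that their reads cannot be told apart, was at 1.34 and the ES cell transcript *Lncenc1* at 1.26, while *Snhg9*, which hosts a snoRNA, was at -3.0 and *Jpx* at -1.83. The abundant nuclear RNAs *Malat1*, with 99929.5 and 88180.3 in the inputs and 117613.6 and 117877.2 in the IP, and *Neat1*, with 4585.5 and 4928.7 in the inputs and 3886.5 and 4788.9 in the IP, were not called (0.32 ± 0.294, adjusted p = 0.411, and -0.13 ± 0.263, adjusted p = 0.723, edgeR). Both were named after their values were seen.

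**Figure D5:**
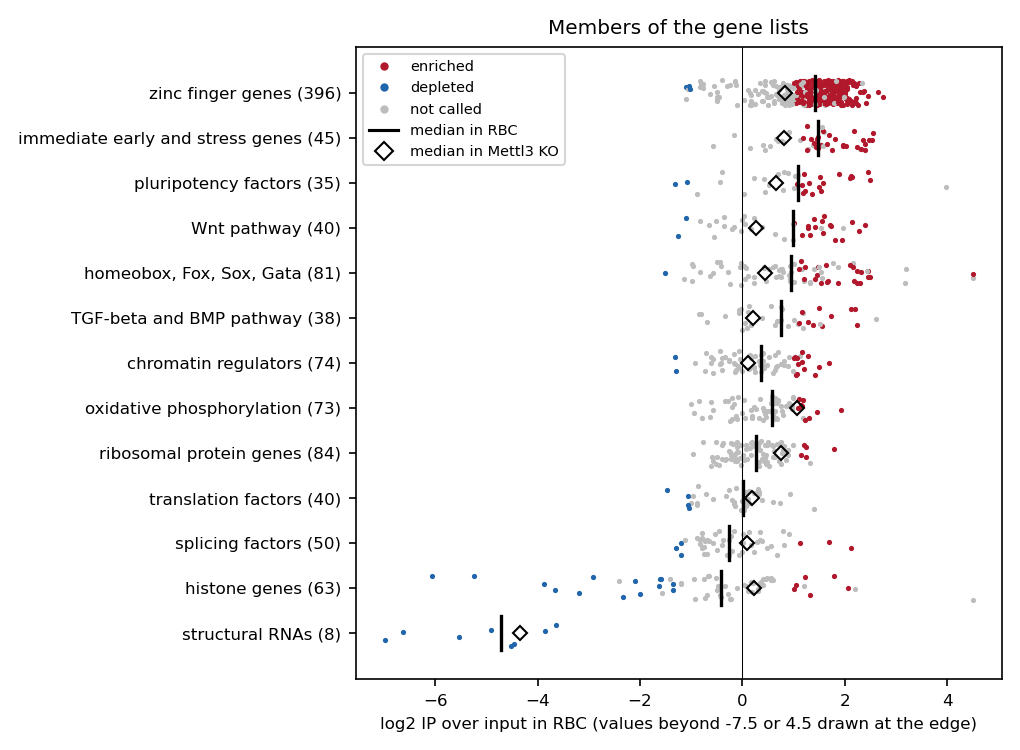
Each point is a tested member of a list of genes (number in parentheses), placed by its log2 IP over input in RBC and coloured by its call, with the median of the list as a bar and the median of the same genes in Mettl3 KO as an open diamond. Zinc finger genes (median 1.42) and immediate early genes (1.48) lie on the right and structural RNAs (-4.72) on the left, and the Mettl3 KO median is nearer 0 in the former but farther from 0 for oxidative phosphorylation (1.06 against 0.57) and ribosomal protein genes (0.76 against 0.26).

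Repeat subfamilies were depleted more often than genes, at 46.1% beside 9.27%. Of the 20 enriched subfamilies 14 were LTR and 4 LINE elements. Of 7 satellite subfamilies tested 1 was enriched and 1 depleted. Of 35 SINE subfamilies 29 were depleted and 0 enriched (median -1.39), and of 195 DNA transposons 154 and 0 (median -1.50). Of 642 LTR subfamilies 224 were depleted and 14 enriched (median -1.0), and of 157 LINE subfamilies 66 and 4 (median -1.0). The depleted share was 82.9% in SINE and 79% in DNA transposons, above the 46.1% of all repeats. In LTR (34.9%) and LINE subfamilies (42%) it was below that share. Scaled by library size, 178 repeats were depleted and 31 enriched, and the depleted repeats numbered 128 without input 1, 0 without input 2, 767 without IP 1 and 0 without IP 2. Reads of a subfamily sum over its copies in the genome, those within introns and untranslated regions of genes included.

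All 4 enriched LINE subfamilies belong to the young L1Md group of 6, which includes elements that are still able to move. *L1Md_Gf* had 7358.8 and 5364.2 normalised reads in the inputs and 20517.7 and 32550.8 in the IP (2.06 ± 0.41, adjusted p = 0.00879, edgeR). *L1Md_T* had 123963 and 106600.2 in the inputs and 295964.5 and 522053.5 in the IP (1.83 ± 0.467, adjusted p = 0.0154, edgeR). *L1Md_A* had 43144.4 and 38149.8 in the inputs and 78088.6 and 123923.5 in the IP (1.31 ± 0.406, adjusted p = 0.0302, edgeR). Input and IP were apart in all 3, with IP replicate 2 above IP replicate 1. The remaining members, named after their values were seen, were *L1Md_F* (1.12, enriched), *L1Md_F3* (0.86) and *L1Md_F2* (0.57). Older Lx subfamilies were enriched in 0 and depleted in 3 of 21 cases (14.3%, beside 46.1% of all repeats). *L1VL1*, with 5296 and 6320.9 in the inputs and 6452.1 and 10697.4 in the IP, was not called (0.56 ± 0.282, adjusted p = 0.14, edgeR).

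Of the repeat classes called as a total, satellites had the largest rise. Their total was 59381.9 and 48036.3 normalised reads in the inputs and 141936.2 and 139084.8 in the IP (1.39 ± 0.318, adjusted p = 0.011, edgeR over genes and summed classes). Most of it was *MMSAT4*, with 40223.8 and 30812.9 in the inputs and 106703.1 and 123401.4 in the IP (1.70 ± 0.313, adjusted p = 0.00728, edgeR). The major satellite *GSAT_MM*, the repeat of pericentric heterochromatin, rose within each replicate, from 1532.2 to 4097.2 and from 564.2 to 1466.5, but the groups overlap and it was not called (1.41 ± 0.746, adjusted p = 0.161, edgeR). With the replicate as a block, which compares each IP with its own input, *GSAT_MM* had a value of 1.40 and an adjusted p of 0.0136 (edgeR). Over all alternatives its adjusted p ranged from 1.0e-04 without the filter on low counts to 0.661 without IP replicate 1, and its log2 fold change from 0.48 without IP replicate 1 to 2.3 without input replicate 1. *SYNREP_MM* had 254.1 and 248.6 in the inputs and 165.9 and 82.5 in the IP (-1.0 ± 0.666, adjusted p = 0.26, edgeR), and was called with the replicate as a block (-1.08, adjusted p = 0.0494, edgeR). The satellite total was not called without input replicate 1, input replicate 2 or IP replicate 2 (1.24 to 1.55).

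Of the LTR elements the largest enrichment was that of *RNERVK23-int*, the internal part of an endogenous retrovirus, with 190 and 184.3 normalised reads in the inputs and 574 and 1142.7 in the IP (2.19 ± 0.554, adjusted p = 0.0148, edgeR). *ORR1A0-int* was at 1.63. Intracisternal A particle (IAP) elements, the most active retroviruses of the mouse, were enriched in 0 and depleted in 1 of 25 cases (4%, beside 46.1% of all repeats). *IAPEz-int* had 25545.6 and 30154.1 in the inputs and 17441.5 and 14433.1 in the IP, below the inputs in both but short of the limit on size (-0.81 ± 0.275, adjusted p = 0.0426, edgeR). *IAPEy-int* had 1499.6 and 1276 in the inputs and 944.3 and 408.4 in the IP (-1.03 ± 0.424, adjusted p = 0.0783, edgeR), and was called with the replicate as a block (-1.15, adjusted p = 0.0308, edgeR).

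The SINE elements held the most repeat reads of the inputs, with 3348078.8 and 3821736.8 normalised reads in the inputs and 1876546.5 and 1018374 in the IP. The total was not called (-1.31 ± 0.535, adjusted p = 0.08, edgeR), although 29 of 35 subfamilies were, and 7 of 10 B1 subfamilies were among these. The total of DNA transposons fell from 277043.1 and 327218.3 to 139301.2 and 73643.3 (-1.50 ± 0.451, adjusted p = 0.0278, edgeR). The totals of LINE (0.03 ± 0.429, adjusted p = 0.965, edgeR) and LTR elements (-0.78 ± 0.431, adjusted p = 0.179, edgeR) were not called. The 7SK repeat row, with 12957.1 and 7227.1 in the inputs and 1458.6 and 328.9 in the IP, had the largest depletion of repeats at a mean of at least 50 reads (-3.49 ± 0.796, adjusted p = 0.011, edgeR), next to the gene row *Rn7sk*. Among DNA transposons *Tigger1a_Art* (-2.42), *MADE2* (-2.35) and *hAT-N1_Mam* (-2.30) followed.

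The same ratio was formed in the other lines to see where RBC differed. WT26 had 3272 enriched (14.5%) and 3064 depleted features (13.5%). Of the features enriched in RBC 85.4% were also enriched in WT26, and of those enriched in WT26 79.1% were also enriched in RBC. *Mettl3* KO had 575 enriched (2.54%) and 420 depleted features (1.86%). Of the features enriched in RBC 11.6% were also enriched in *Mettl3* KO, and of those enriched in *Mettl3* KO 61.2% were also enriched in RBC. In the 3010 genes enriched in RBC the median log2 fold change was 1.52 in WT26 and 0.94 in *Mettl3* KO, and 84 had the opposite sign in *Mettl3* KO. Since these genes were chosen for high values in RBC, lower values elsewhere are a description.

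Tested as a difference of log2 fold changes, no feature differed between *Mettl3* KO and RBC at an adjusted p of at most 0.05 (edgeR; DESeq2 also called 0). At an unadjusted p under 0.05 there were 787 features (3.48% of those tested), 549 lower and 238 higher in *Mettl3* KO, and 687 by DESeq2. Without IP replicate 1 of RBC the 787 became 3682, and without IP replicate 2 they became 276. Between RBC and WT26 likewise 0 features differed at the adjusted p, and 133 (0.588%) at the unadjusted one. An adjusted p over the limit does not show that the lines are alike.

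Single genes had differences in both directions, none of which passed the adjusted limit. *Cbr3* had 14.6 and 13.9 normalised reads in the RBC inputs and 73.1 and 127.7 in the IP, against 120.8 and 134.9 in the inputs and 218 and 332 in the IP of *Mettl3* KO. Its log2 fold change was 1.69 lower in *Mettl3* KO, given as -1.69 ± 0.56 (unadjusted p = 0.00898, adjusted p = 0.854, edgeR). *Ccdc85b* had 46.3 and 28.9 in the inputs and 120.4 and 164.4 in the IP of *Mettl3* KO, a difference of -1.41 ± 0.64 (adjusted p = 0.854, edgeR). *Klf4* had 1477.8 and 1437.1 in the inputs and 2415.3 and 3900.5 in the IP of *Mettl3* KO (-1.03 ± 0.72, adjusted p = 0.854, edgeR). In *Sox2*, with 877.4 and 897.6 in the inputs and 2256.4 and 4341.7 in the IP, the value of *Mettl3* KO was 1.89, and the difference was -0.21 ± 0.58 (adjusted p = 0.936, edgeR). *Rmrp* had 71008.6 and 51355.8 in the inputs and 1190.4 and 2301 in the IP of *Mettl3* KO, and was less depleted than in RBC by 1.84 ± 0.68 (unadjusted p = 0.0168, adjusted p = 0.854, edgeR).

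By function, the median of zinc finger genes was 1.42 in RBC, 1.42 in WT26 and 0.83 in *Mettl3* KO, and that of immediate early genes 1.48, 1.5 and 0.82. Nuclear genes of oxidative phosphorylation had 0.57, 0.58 and 1.06, with 9 enriched in RBC and 35 in *Mettl3* KO, and ribosomal protein genes 0.26, 0.22 and 0.76, with 5 and 18 enriched. Proteasome genes had 1 enriched in RBC and 7 in *Mettl3* KO. These lists differ in the length of the longest exon, with a median of 2507 bases in zinc finger genes, 1855 in immediate early genes, 300 in oxidative phosphorylation and 322 in ribosomal protein genes. *L1Md_A* was at 0.60 in *Mettl3* KO and 2.04 in WT26, and the satellite total at 1.05 and 1.35, each without a called difference from RBC.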

How the data were processed

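Nuclear RNA was treated with DNase, sonicated to fragments of about 500 bases and divided into input and IP. The product of 3 MeRIP reactions was combined per replicate, and stranded total RNA libraries were sequenced as 75-base read pairs. Per the submitters' notes and the study's methods, adapters were removed by cutadapt 1.8.1 and alignment to GRCm38 used STAR 2.6.0c, keeping reads with many matches. Genes and RepeatMasker subfamilies were then counted by TEtranscripts. The values the authors deposited are raw counts without normalization, and their notes also name DESeq2 1.26.0. Reads with many matches are shared out by an estimate, so that counts of near-identical copies are uncertain. RNA-seq of the series was not used, and 627 gene identifiers without annotation here are not reported.

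The main test was the quasi-likelihood test of edgeR 4.0.16, run in R 4.3.3 on the 16 MeRIP libraries in 8 groups, which share 1 estimate of the spread, with the size factors of DESeq2 1.42.0 and edgeR's filterByExpr. The common biological coefficient of variation was 0.273. A normalised read count is the count divided by the size factor. Ratios within a replicate used a pseudocount of 0.5. Differences between lines are contrasts of log2 fold changes in the same fit. Class totals were tested together with the genes, over 21538 features. Replicates of RBC differed by more than counting error (chi-square per degree of freedom 71.7 for input and 216 for IP). Input and IP of the same number come from 1 RNA preparation and deviated together (r = 0.219 in RBC), which pairs them, and the fit with this block is an alternative. Totals set counting error only, and 2 replicates per group limit the precision more. Positions, exons and sequences are those of GENCODE M21 for the transcript with the longest coding sequence, read with Python 3.11.15. Only the fit of the counts was tested on simulated data, and the other steps were not.

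Members of lists and the lists themselves were chosen with earlier results of these data known. Genes were named when called, at most 4 per list and direction by size, or when among the 8 (protein-coding genes) or 5 (other genes, repeats) largest changes at a mean of at least 50 normalised reads without overlap between input and IP, or when the study names them for MeRIP. Others are said to have been chosen after their values were seen. Alternatives were DESeq2, other scalings and filters, no limit on size, the 4 RBC libraries alone, the replicate block and leaving out each library.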

Additional observations from a re-analysis of the deposited data

How the results depend on the processing

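The fit with the replicate block, in which each IP was compared with its own input, gave 2992 enriched and 2506 depleted features, of which 2727 and 2239 were also called without the block. Pairing the samples took 5 named calls over the limit (*Nanog*, *Mob1b*, *Prpf4*, *Eif4g2* and *Ect2*) and brought in 3 (*GSAT_MM*, *IAPEy-int* and *SYNREP_MM*). DESeq2 gave 3173 and 2617 features and TMM factors 3155 and 2222. Scaled by library size, 5809 genes were enriched and 874 depleted, and 31 repeats were enriched and 178 depleted. Size factors from gene rows left 13 enriched repeats and a LINE total of -0.04. A minimum of 10 counts in every RBC library left 1154 depleted genes, and the 4 RBC libraries alone left 9 enriched repeats and a satellite total of 1.39 that was not called. The SINE total of -1.31 was called by DESeq2 and without a filter, and at -1.82 without IP replicate 1. Without a filter, 6 features were lower and 19 higher in *Mettl3* KO than in RBC and 7 differed between RBC and WT26. *Mettl14* turned to 0.26 with library-size scaling and ranged from -0.38 without input replicate 1 to 0.06 without input replicate 2.

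Leaving out each RBC library in turn gave 1 to 4138 enriched and 67 to 3077 depleted genes, 0 to 23 enriched and 0 to 767 depleted repeats, and 0 features that differed between lines. Class totals ranged from 1.24 to 1.55 for satellites, -0.06 to 0.12 for LINE, -1.82 to -0.93 for SINE and -1.02 to -0.58 for LTR. The LINE total was -0.01 without input replicate 1 and -0.06 without IP replicate 2. The cause of these changes was not tested. With 2 replicates whose ratios differ in size, counts of calls are uncertain. Directions of called features could hardly change in these fits, since input and IP do not overlap in nearly all of them.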
